A study of Mus musculus with 4 samples.

Results

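Liver RNA of mice fed a nucleoprotein diet was compared, gene by gene, with liver RNA of mice fed a diet low in nucleoprotein, after both had received lipopolysaccharide. The data were the 2 liver arrays of a series of 4, the other 2 being of spleen, and 16402 of the 27670 genes on the array could be measured in liver. All animals were male C57BL/6J mice, 7 weeks old at the start, and none carried a transgene or mutation that the labels name. Control mice ate a purified diet with 0.03% nucleic acids, and the others the same base with 1.2% of a nucleoprotein product, which raised nucleic acids to 0.5%. After 4 weeks both groups were injected once with lipopolysaccharide, the inflammatory cell wall component of Gram-negative bacteria (10 mg/kg), and liver was taken 6 h later. Every mouse was thus in an acute inflammatory state, and no uninjected animals were analysed here. The housing notes name a standard chow, so the description of the control diet rests on the design text. The sources used here do not state the time of day at collection.

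The arrays carried pooled RNA of each diet group, from a number of mice that the sources used here do not state. The labels number the pooled samples 1 and 2 without saying whether these were the same RNA, and they were treated as 1 pool per diet hybridised with the dyes exchanged. On the replicate 1 array the nucleoprotein pool carried Cy5 (red) and on the replicate 2 array it carried Cy3 (green). A diet difference therefore had no biological replicate, no test was run, and the SD given with a mean ratio is the spread of both arrays, which covers labelling and array error and any dye effect of the gene. Ratios are log2 of nucleoprotein over control, so that negative values are lower with nucleoprotein, and levels are log2 intensities of 1 channel after scaling. Levels of different genes come from different probes and are not set against each other.

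The liver stores fuel after meals and releases it between them. In the fed state insulin and glucose, acting through the transcription factors SREBP-1c (gene Srebf1) and ChREBP (Mlxipl), raise the enzymes that turn acetyl-CoA into fatty acids, while cholesterol synthesis answers to SREBP-2 (Srebf2) and the sterol content of the cell. Pyruvate dehydrogenase lets pyruvate into this route, and its kinases close it in fasting, when fatty acids are burned. The circadian clock, a loop of activators and repressors entrained by feeding time in liver, sets the daily rhythm of many of these genes.

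All 17 hepatocyte markers on the array, albumin (Alb) and coagulation factor II (F2) among them, were measurable in liver. In spleen 15 of them were, so being measurable does not tell the organs apart. The summed level of those measurable was 18.8 in the control pool of liver and 11.6 in that of spleen. In liver all 17 had opposite signs on the 2 arrays, with medians of 0.41 and -0.43 on the single arrays and means between -0.28 and 0.17. Per channel, 55.2% to 66.9% of the gene spots stood well above background, and the red channel was the fuller one on both arrays. Over all measurable genes the median ratio was 0.02, at 0.03 and -0.01 on the single arrays. The 2 arrays shared little: across genes, which are not independent replicates, their ratios correlated at 0.102 (Pearson) and -0.482 (Spearman). Of the 16402 genes, 6800 had a mean below 0, 2222 lay below 0 on both arrays, 3370 above 0 on both and 10810 had opposite signs. Of the 16402, 74 passed 1.5-fold on each array but with opposite signs, and in all 74 the Cy5 channel was the brighter one. Small shifts carried by 1 array only are therefore given as values and not as differences.

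A gene was called when both of its ratios lay beyond 1.5-fold, a log2 value of 0.58, with 1 sign. In all measurable genes 2 were called higher (0.0122%) and 51 lower (0.311%). Genes of pancreatic digestive secretion made up 36 of the 51 and were set apart. Of the 16361 measurable genes outside that list 2 were called higher (0.0122%) and 15 lower (0.0917%). The 2 were Pdk4, which shuts pyruvate dehydrogenase, and the transcript 3930402G23Rik. Among the 15 were Acly, Acss2 and G6pdx, which supply acetyl-CoA and NADPH for lipid synthesis, the clock output factor Dbp, the heat shock chaperone Hspa1a and the feeding-responsive genes Arrdc3 and Rgs16. Also among the 15 were the glandular kallikreins Klk1b5, Klk1b3 and V00829, while their relative Klk1 was counted in the digestive list. Median centring of each array in place of intensity-dependent loess raised the median of all genes to 0.17 and the median SD between arrays from 0.127 to 1.35. It left 0 calls higher and 2 lower outside the digestive list, CF584628 and Klk1b5, while the mean ratios of all 17 called genes kept their sign. The log ratios of the scanner's Feature Extraction software gave 28 higher and 68 lower, and all 15 lower genes were among the 68. The share of higher genes in all calls, the digestive list included, was 3.77% in the main values, 20.9% with Feature Extraction's log ratios and 0% with median centring.

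**Figure D1:**
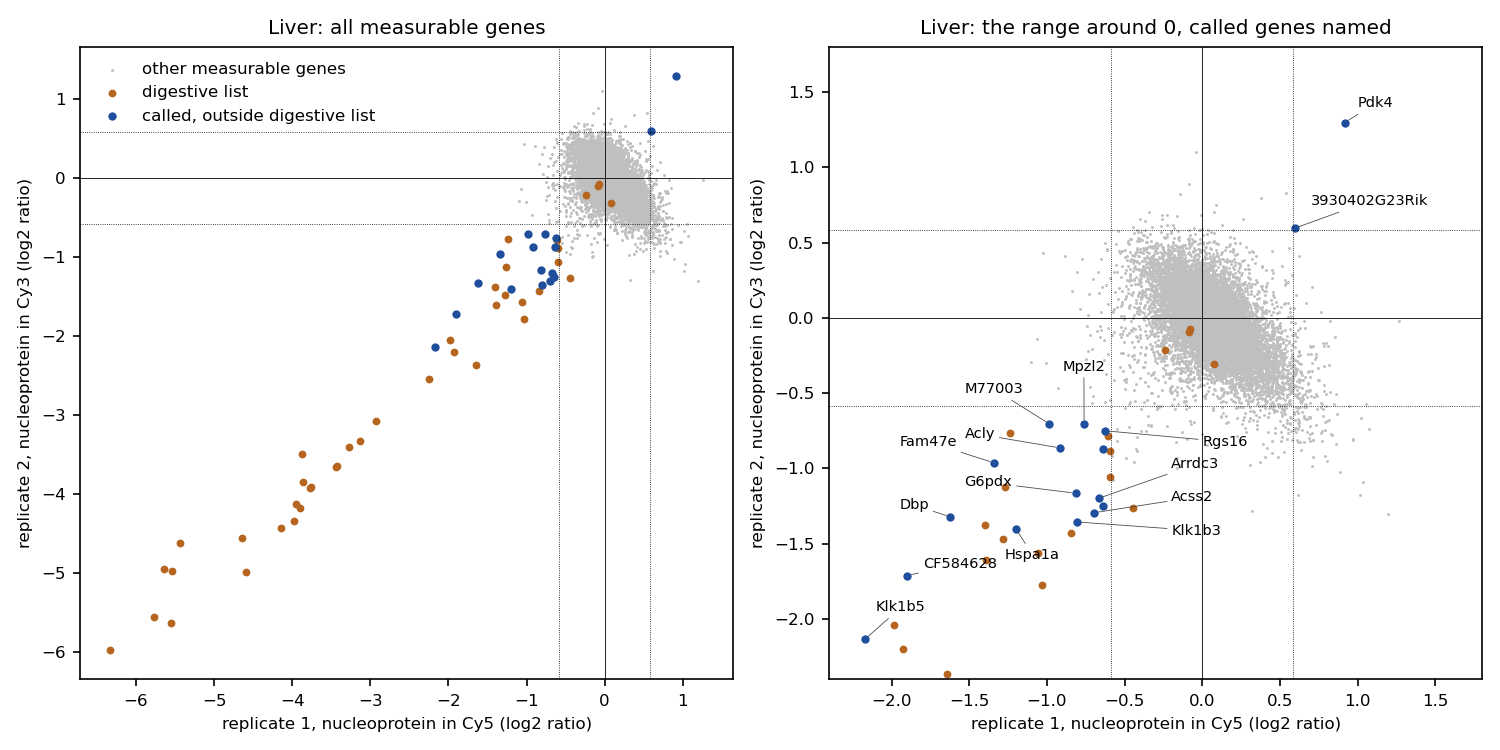
Log2 ratio of nucleoprotein over control on the liver replicate 1 array (x axis) against the replicate 2 array (y axis), 1 point per measurable gene, with dotted lines at 1.5-fold; the right panel enlarges the range around 0 and names the called genes outside the digestive list except V00829 and ENSMUST00000003582. The digestive genes run down the diagonal to Cpb1 at -6.33 and -5.98, Pdk4, Dbp, CF584628 and Klk1b5 lie apart from the cloud while Rgs16 lies near its edge, and the cloud itself leans from upper left to lower right, as genes that follow the dye do.

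The digestive genes, which encode the secreted enzymes and accessory proteins of pancreatic acinar cells, had by far the lowest median of the lists. Of 51 genes listed 44 were on the array and 41 were measurable, all 41 had mean ratios below 0, and 36 were called lower, with a median of -3.00 (-2.93 and -3.07 on the single arrays). All 23 measurable enzyme genes were called. Carboxypeptidase B1, Cpb1, had levels of 14.14 and 13.90 in the control pool and 7.81 and 7.93 in the nucleoprotein pool, a ratio of -6.15 ± 0.25 (SD of 2 arrays). The summed level of the list was 17.90 in the control and 14.46 in the nucleoprotein pool. The elastase Cela3b was at -5.66 ± 0.15, Reg1, an acinar secretory lectin, at -5.29 ± 0.50, pancreatic lipase Pnlip at -4.79 ± 0.28, Cel at -4.15 ± 0.26, Amy2 at -4.04 ± 0.19, Cpa1 at -4.04 ± 0.12 and colipase Clps at -3.54 ± 0.15. Chymotrypsinogen Ctrb1 was at -1.64 and -2.36. Of the acinar transcription factors Ptf1a was not well above background in either pool, and Rbpjl at -0.09 and Bhlha15 at -0.12 were not called. The islet hormone genes Ins1 and Gcg were not well above background either, and Ins2 was at 0.01 and -0.08. In pooled tissue fewer cells of a type and less RNA per cell cannot be told apart, and the part of pancreatic RNA in either pool was not tested. The part of these genes in the values that follow was not tested.

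Of the genes of fatty acid and triglyceride synthesis, Acly and Acss2, which supply acetyl-CoA, were called lower. In this list of 47, 34 genes had mean ratios below 0, against 6800 of all 16402. Of the list 2 were called lower and 0 higher, and the median was -0.07 (-0.07 and -0.16 on the single arrays) against 0.02 over all genes. Below 0 on both arrays were 21 of the 47, against 13.5% of all measurable genes, and 5 were above 0 on both, against 20.5%. The 6 genes of acetyl-CoA and malonyl-CoA supply all had means below 0, 5 of them on both arrays, with 2 called and a median of -0.64 (-0.71 and -0.59). The median of the whole list relative to all genes ran from -0.15 to 0.02 over the processing alternatives and was above 0 with median centring.

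ATP citrate lyase, Acly, which splits citrate into acetyl-CoA outside mitochondria, had levels of 9.51 and 9.29 in the control pool and 8.60 and 8.42 in the nucleoprotein pool. The ratios were -0.92 and -0.86, a mean of -0.89 ± 0.04 or 1.85-fold. Its other probe was at 0.06. Acss2, which makes acetyl-CoA from acetate, had levels of 12.12 and 12.50 in the control and 11.42 and 11.20 in the nucleoprotein pool. Its ratios were -0.70 and -1.29, and its 3 other probes lay between -0.85 and 0.03. With the mean over a gene's probes Acss2 was no longer called.

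The carboxylases that make malonyl-CoA, the building block of the chain, were lower on both arrays without being called. Acacb, the form at the mitochondrial surface, was at -1.10 and -0.29, with its other probe at -0.05, and Acaca, the form of the synthesis route, at -0.33 and -0.71, with other probes between -0.04 and 0.03. Mid1ip1, which promotes assembly of these carboxylases, was at -0.72 and -0.46. The citrate carrier Slc25a1 went opposite ways at 0.34 and -0.47.

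Fatty acid synthase, Fasn, had levels of 14.94 and 14.87 in the control and 14.47 and 14.31 in the nucleoprotein pool. The ratios of -0.47 and -0.57 (mean -0.52 ± 0.07, 1.44-fold) did not reach the bound on either array, and its other probe was at -0.45. Thrsp, a regulator of lipogenic enzymes that follows feeding and thyroid hormone, reached it on 1 array only, at -0.55 and -0.74, with control levels of 14.22 and 14.07 against 13.67 and 13.33. Elongases and desaturases were mixed. Stearoyl-CoA desaturase Scd1 was at 0.32 and -1.28, so that its mean of -0.48 ± 1.13 rested on 1 array, while the delta desaturases Fads1 at -0.25 ± 0.12 and Fads2 at -0.14 ± 0.03 were below 0 on both. Elovl6, a SREBP-1c target, was at -0.07 and 0.26. Elovl3, an elongase of very long chains, was the exception at 0.56 and 0.47.

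Of the transcription factors, Srebf1 was at -0.37 and -0.25 (mean -0.31 ± 0.09) and Mlxipl at -0.05 and -0.06. The liver X receptor gene Nr1h3, which acts upstream of Srebf1, was at -0.11 and -0.16. With median centring, where all genes had a median of 0.17, Srebf1 was at 0.04, Fasn at -0.10 and Thrsp at -0.23.

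In glycerolipid assembly 14 of 20 genes were below 0, 0 were called and the median was -0.03. The phosphatidate phosphatases Lpin1 at -0.52 and -0.23 and Lpin2 at -0.27 and -0.59, and Dgat2, which completes triglycerides, at -0.23 and -0.31, were below 0 on both arrays. The probe named Gpam, close to background, was at -0.20 and -0.47, and its mean of -0.34 came to -1.13 with Feature Extraction's log ratios. A brighter probe that the file keeps under the accession M77003 and describes as a glycerol-3-phosphate acyltransferase mRNA, the enzyme that Gpam encodes, was called lower at -0.99 and -0.70. The droplet coat gene Plin2 was at 0.32 and 0.04.

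Fatty acid synthesis consumes NADPH. Most genes listed for its supply, 7 of them of the pentose phosphate pathway as a whole, also had means below 0. Of 9 measurable genes 8 had negative means, against 6800 of all 16402, and 6 of the 8 were below 0 on both arrays. In the list 1 was called lower and the median was -0.19 (-0.17 and -0.14). G6pdx, which catalyses the committed step of the pentose phosphate pathway, had levels of 10.36 and 10.48 in the control and 9.54 and 9.31 in the nucleoprotein pool. Its ratios were -0.82 and -1.17, or 1.99-fold lower on the mean. The next dehydrogenase of that pathway, Pgd, was at -0.17 and -0.46, and malic enzyme, Me1, which makes NADPH from malate, at -0.17 and -0.99, with its other probe at -0.62. The relative median of this list stayed below 0 in every alternative, between -0.21 and -0.03.

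**Figure D2:**
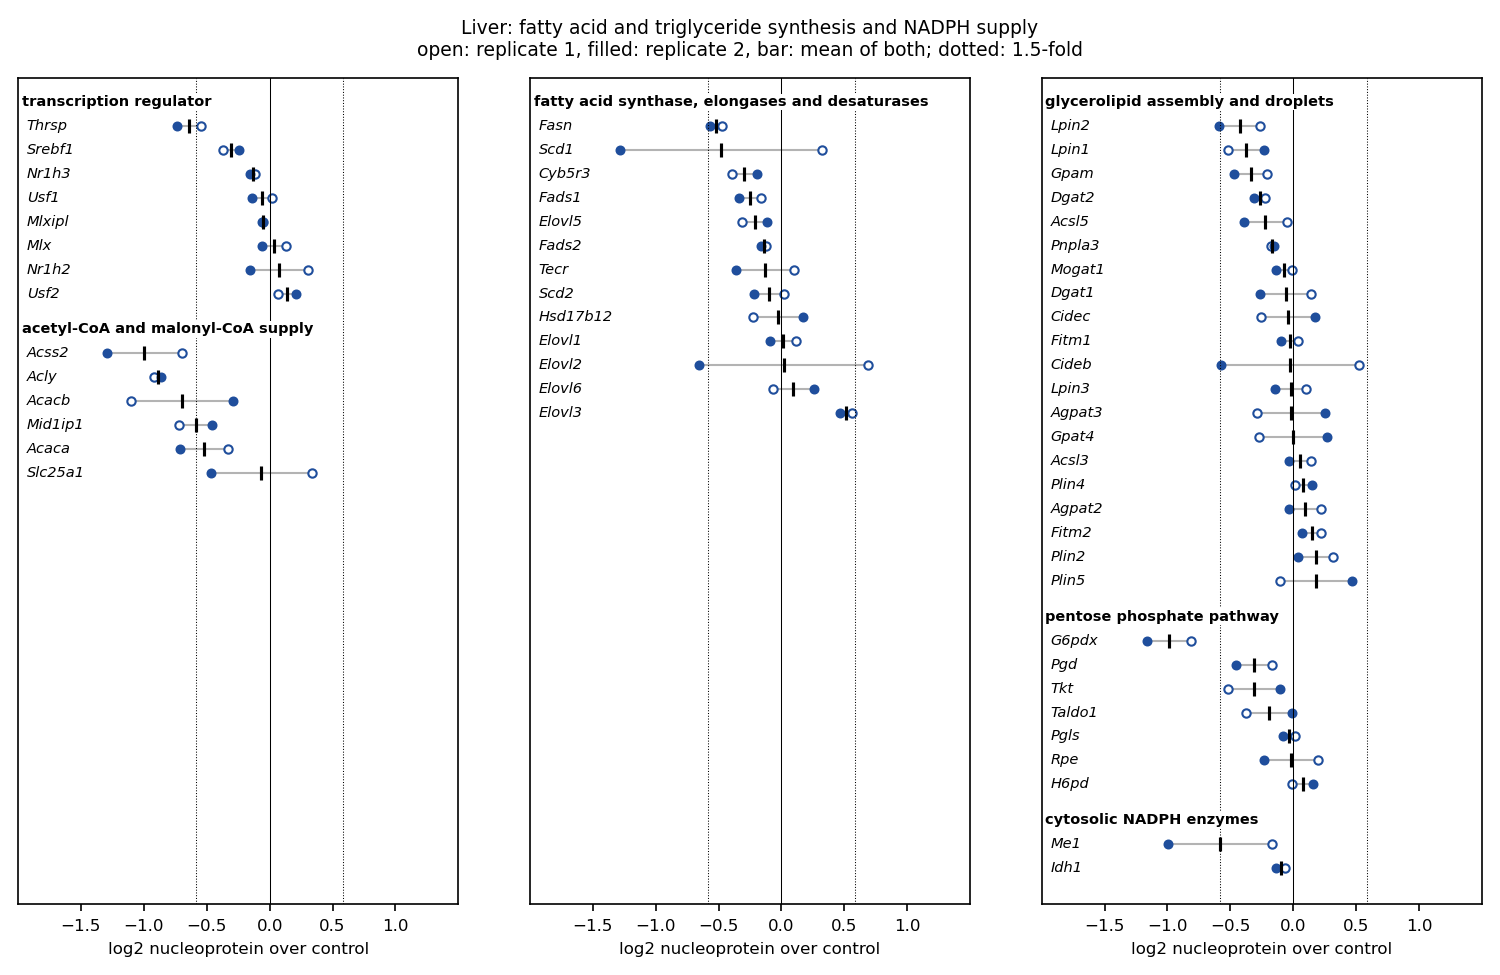
Log2 ratio of nucleoprotein over control in liver for every measurable gene of fatty acid and triglyceride synthesis and of NADPH supply, grouped by role; open circles are replicate 1, filled circles replicate 2, bars their mean, and dotted lines mark 1.5-fold. Acss2, Acly and G6pdx have both circles past the left line, Acacb, Mid1ip1, Acaca, Thrsp and Fasn have both below 0, and the regulators and glycerolipid genes lie nearer to 0.

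No gene of cholesterol synthesis was called. Of 30 measurable genes of sterol synthesis and uptake 27 had negative means, 17 were below 0 on both arrays, 0 above 0 on both and 13 of opposite signs. Over all 16402 measurable genes these counts were 6800, 2222, 3370 and 10810. The median of the sterol list was -0.21 (-0.20 and -0.22 on the single arrays). Relative to all genes it lay between -0.27 and -0.12 in every alternative, median centring included. All 8 measurable genes of the mevalonate branch were below 0 (median -0.24) and 12 of 13 of the sterol branch (median -0.28).

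Farnesyl diphosphate synthase, Fdps, which closes the mevalonate branch, had levels of 13.84 and 13.84 in the control against 13.35 and 13.42 in the nucleoprotein pool, a ratio of -0.46 ± 0.05. Dhcr7, which carries out the last reduction to cholesterol, was at -0.64 and -0.28 and Sqle, the squalene epoxidase, at -0.07 and -0.70. Hmgcs1 had no mean, as its spot was flagged as an outlier on 1 array. Its ratio was -0.62 on the other, and its 2 other probes were at -0.22 and -0.16. Idi1 was at -0.27 ± 0.18, Fdft1 at -0.31 ± 0.13, Lss at -0.27 ± 0.06 and Cyp51 at -0.21 ± 0.12. Ebp at 0.00 on both arrays and Acat2 at 0.05 and -0.06 had means of 0.00.

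Among the controllers Srebf2 was at -0.12 and 0.19, whereas Insig1, a SREBP target that holds the factor back in the endoplasmic reticulum, was at -0.22 and -0.21. Genes of sterol export and bile acid output gave a different picture. Of 12 measured 0 were called, 4 had negative means and 0 were below 0 on both arrays, with a median of 0.02. The exporters Abca1 (0.42 and -0.22) and Abcg5 (-0.46 and 0.29) had opposite signs on the 2 arrays, and Cyp7a1, the rate-limiting enzyme of bile acid synthesis, was at 0.05 and -0.08. Abcg8 was at 0.00. Of the 2 genes of this list above 0 on both arrays, the bile acid hydroxylase Cyp8b1 was at 0.56 and 0.07 and Cyp27a1 at 0.03 and 0.07.

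Pdk4 was the larger of the 2 calls higher in liver. Pyruvate dehydrogenase kinase 4 phosphorylates the pyruvate dehydrogenase complex and so keeps glucose carbon out of the citric acid cycle and out of lipid synthesis; it is known as a gene of fasting. Its probe (mm7, chr6:5436327-5436386) had levels of 8.77 and 8.58 in the control and 9.69 and 9.88 in the nucleoprotein pool. The ratios were 0.92 and 1.30, a mean of 1.11 ± 0.27 or 2.15-fold. In spleen the same probe was at 0.23 and 0.29. Median centring took its call, with a mean of 1.31.

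The other kinases were near 0. Pdk1 was at -0.19 and 0.06, Pdk2 at -0.03 and 0.00 and Pdk3 at 0.07 and -0.10. All 5 subunits of the complex had means below 0, with a median of -0.18 (-0.05 and -0.13), and 0 were called. Pdha1, the catalytic alpha subunit that the kinases phosphorylate, was at -0.27 and -0.09 and Pdhb at -0.07 and -0.41. Over the 12 genes of this list the median was -0.02.

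**Figure D3:**
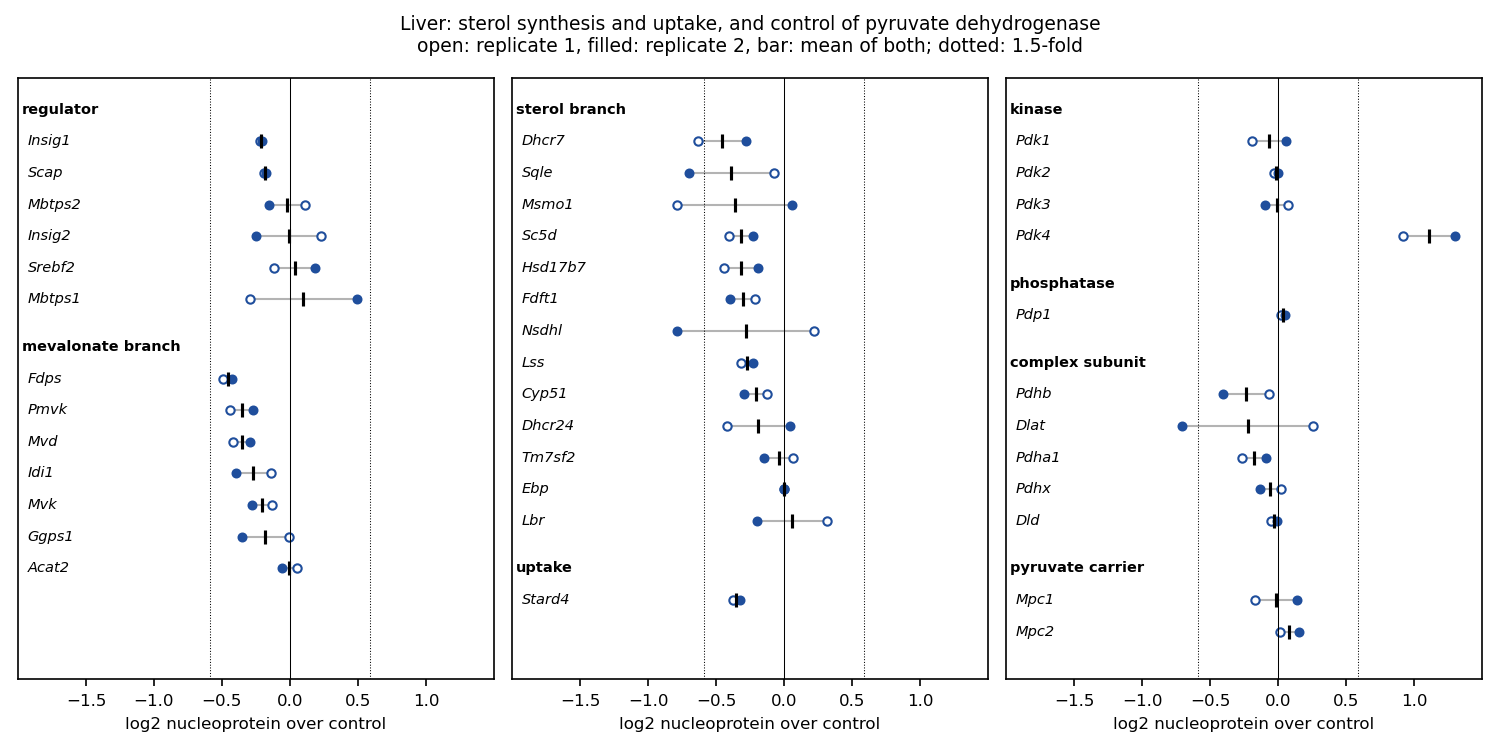
Log2 ratio of nucleoprotein over control in liver for genes of sterol synthesis and uptake (left and middle) and of pyruvate dehydrogenase control (right); open circles are replicate 1, filled circles replicate 2, bars their mean, and dotted lines mark 1.5-fold. Most of the sterol genes shown have their mean left of 0 and none passes the line on both arrays, while Pdk4 stands alone to the right at 0.92 and 1.30.

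Genes that burn fatty acids were not called. Of 44 measured genes of fatty acid oxidation and ketogenesis 0 were called, 25 had positive and 19 negative means, and the median was 0.01 (0.05 and -0.01). The regulator Ppara was at 0.25 and -0.45, Ppargc1a at -0.01 and 0.10, and the hormone gene Fgf21, a PPAR alpha target of fasting, at 0.08 and 0.20. Cpt1a, which commits fatty acids to mitochondria, was at 0.51 and -0.47 and the dehydrogenase Acadm at -0.20 and 0.21. Of the 44 genes 30 had opposite signs on the 2 arrays, near the share of all measurable genes (10810 of 16402). The PPAR alpha targets Angptl4 (-0.11 and -0.13), Cyp4a10 (0.21 and -0.04), Cyp4a14 (-0.24 and 0.02) and Cd36 (-0.07 and -0.29) showed no common direction. Acot1, a cytosolic acyl-CoA thioesterase, had the largest mean of those with 1 sign on both arrays, at 0.38 and 0.80, followed by the thiolase Acaa1a at -0.30 and -0.19 and Cpt2 at 0.05 and 0.33.

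In glucose metabolism 24 of 30 measurable genes had negative means, against 6800 of all 16402, and 10 were below 0 on both arrays, against 2222. In the list 0 were called and the median was -0.16 (-0.08 and -0.25). Relative to all genes this median ran from -0.23 to 0.01 over the alternatives and was above 0 with median centring. Pklr, the liver pyruvate kinase and a ChREBP target, was at -0.42 and -0.87, with control levels of 9.91 and 10.12 against 9.49 and 9.24. Slc37a4, which carries glucose 6-phosphate to glucose-6-phosphatase, was at -0.93 and -0.47, with 13.30 and 13.15 against 12.38 and 12.69. Ppp1r3c, which targets a phosphatase to glycogen, was at -0.16 and -0.93, and Ppp1r3b, of the same function, at -0.15 and -0.36. Glycogen synthase Gys2 was at -0.38 and 0.00. The gluconeogenic genes G6pc (0.22 and -0.03) and Fbp1 (0.10 and -0.24) were not called, and Pck1 had no mean because its spot was flagged on 1 array, with 0.12 on the other.

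Of 27 measurable insulin and feeding response genes 12 had means below 0, near the share of all genes (6800 of 16402). The median was 0.01, and 2 genes were called lower and 0 higher. Both calls were in the group of arrestin-domain and glucose-sensing genes. Arrdc3, an arrestin-domain gene related to Txnip, had levels of 8.38 and 8.93 in the control and 7.71 and 7.73 in the nucleoprotein pool, with ratios of -0.67 and -1.20. Rgs16, a brake on G protein signalling whose liver expression follows feeding, had levels of 13.04 and 12.97 against 12.41 and 12.22, with ratios of -0.63 and -0.75. These levels come from the arrays that made the calls and add no support to them. Arrdc3 moved from a mean of -0.93 to -1.50 with Feature Extraction's log ratios. The best known glucose-responsive member, Txnip, was at 0.12 and -0.22. Igfbp1, a FOXO1 target that insulin represses, was at 0.77 and 0.04, and Foxo1 at 0.23 and -0.44 and Klf15 at 0.41 and -0.52 had opposite signs. The insulin receptor gene Insr was at 0.37 and -0.23.

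Of 24 measurable clock genes 17 had negative means, against 6800 of all 16402, and 10 were below 0 on both arrays, against 2222. Of the 24, 1 was called lower. The median was -0.12, but the single arrays gave 0.00 and -0.27. Relative to all genes it stayed below 0 in every alternative, between -0.21 and -0.02. Dbp, a PAR-bZIP transcription factor that the clock drives directly and that carries its rhythm to metabolic genes, had levels of 11.81 and 11.59 in the control and 10.19 and 10.27 in the nucleoprotein pool. Its ratios were -1.62 and -1.32 (mean -1.47 ± 0.21, 2.77-fold, probe on mm7, chr7:41886169-41886228). It was the largest call outside the digestive and kallikrein genes apart from the unnamed CF584628. In spleen it was at -0.14 and 0.09.

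Its relatives Tef at -0.35 and -0.55 and Hlf at -0.17 and -0.34 were below 0 on both arrays. Nfil3, which binds the same DNA element and opposes them, was above 0 on both at 0.39 and 0.34, its other probe at 0.36. The repressors Per2 (-0.35 and -0.71) and Ciart (-0.44 and -0.96) were also below 0 on both arrays, with 0 called among 8. These dim probes depended on the background treatment. From means of -0.53 and -0.70, Per2 and Ciart came to -1.19 and -1.11 with plain subtraction and to -1.35 and -1.14 with Feature Extraction's log ratios. With the mean over a gene's probes Per2 came to -0.29 and Tef, from -0.45, to -0.24. Per1 at -0.65 and 0.20 and Nr1d1 at 0.35 and -0.68 had opposite signs on the 2 arrays. Of the activators Clock was at 0.34 and 0.22, with other probes between -0.08 and 0.16, and Arntl at 0.82 and -0.02. Npas2 and Per3 were not measurable. Upp2, a uridine phosphorylase whose liver rhythm the clock sets, was not called at -0.55 and -0.82.

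The 250 bases before the transcription start of Dbp and Tef are shown because both PAR-bZIP genes were below 0 on both arrays, Dbp alone being called, and because the clock proteins bind the E-box CACGTG while the PAR-bZIP factors and Nfil3 bind the D-box TTANNTAA. Sequences are those of RefSeq for GRCm38.p6, 5′ to 3′ on the strand of the gene, with matches in capitals. Tef was chosen for display after its value was seen.
Dbp (GRCm38.p6, chr7:45704997-45705246, plus strand): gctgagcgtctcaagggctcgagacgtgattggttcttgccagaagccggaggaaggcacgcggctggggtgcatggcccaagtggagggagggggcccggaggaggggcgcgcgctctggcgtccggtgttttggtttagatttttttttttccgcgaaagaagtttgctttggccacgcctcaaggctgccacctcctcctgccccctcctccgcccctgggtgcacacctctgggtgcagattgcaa
Tef (GRCm38.p6, chr15:81802423-81802672, plus strand): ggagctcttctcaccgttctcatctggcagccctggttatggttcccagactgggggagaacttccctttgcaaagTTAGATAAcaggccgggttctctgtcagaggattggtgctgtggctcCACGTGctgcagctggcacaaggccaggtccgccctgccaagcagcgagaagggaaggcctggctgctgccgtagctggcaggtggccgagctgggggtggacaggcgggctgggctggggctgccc

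The Tef window shown, 1 of 2 of this gene, held an E-box at -127 to -122 and a D-box at -174 to -167 from the start. The Dbp window held 0 matches to either. Searched on both strands, CACGTG was present in 6 of 33 windows of clock genes (18.2%, of the genes Bhlhe41, Ciart, Cry1, Per1 and Tef) and in 6.02% of all 32851 windows. TTANNTAA was present in 6.06% of them, 2 windows (of Per3 and the Tef window shown), and in 5.43% of all. These counts describe letters in a window.

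**Figure D4:**
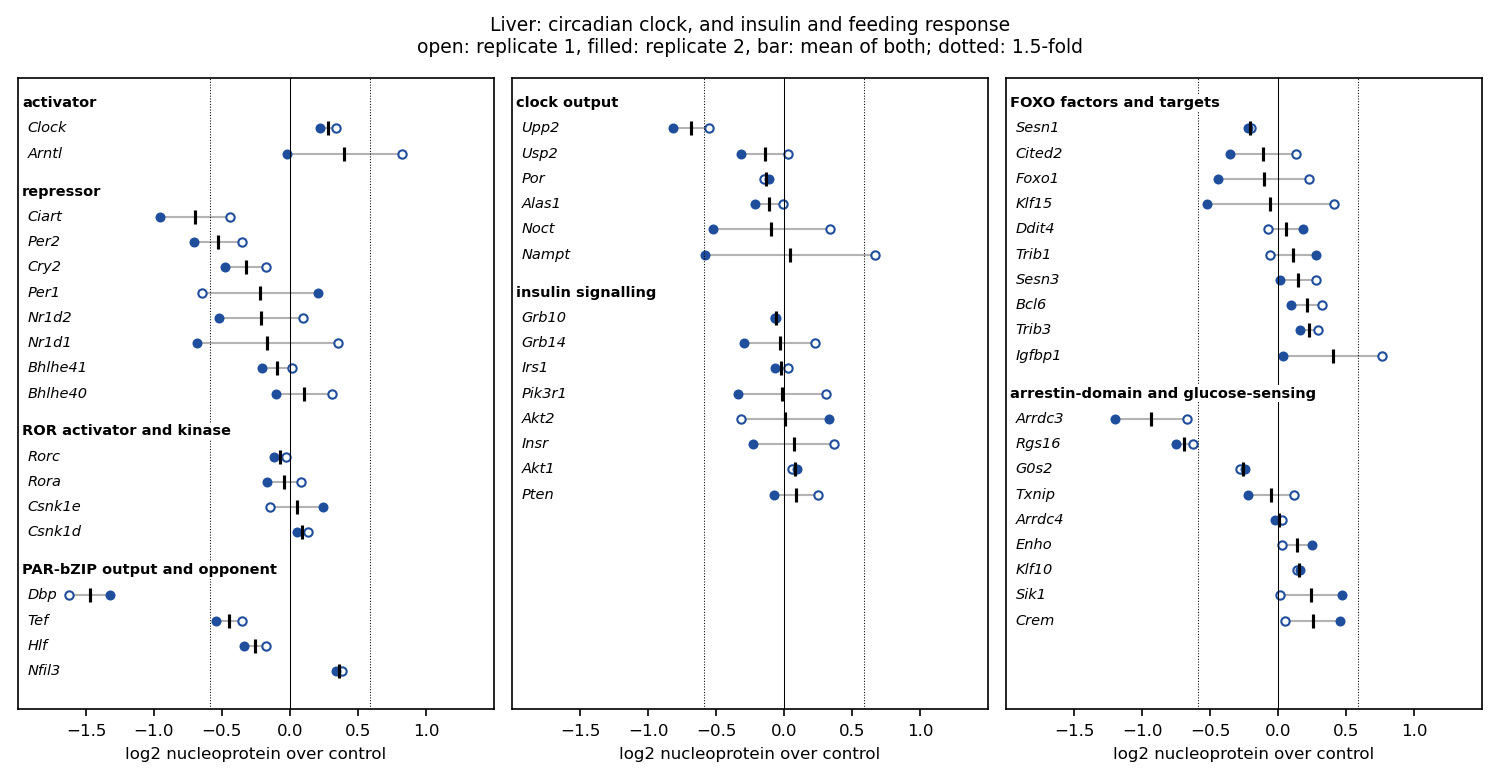
Log2 ratio of nucleoprotein over control in liver for the measurable clock genes (left and upper middle) and insulin and feeding response genes (lower middle and right); open circles are replicate 1, filled circles replicate 2, bars their mean, and dotted lines mark 1.5-fold. Dbp, Arrdc3 and Rgs16 have both circles past the left line, Tef and Hlf lie left of 0 and Nfil3 right of it, while Nr1d1, Nampt and Klf15 have their circles on opposite sides.

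Heat shock genes, the chaperones that the factor HSF1 induces when proteins misfold, were listed because the inducible Hspa1a was called. Of 21 measurable genes 19 had negative means, against 6800 of all 16402. On both arrays 11 lay below 0, against 2222, and 0 above 0, against 3370. Of the 21, 1 was called, and the median was -0.10 (-0.11 and -0.14). Relative to all genes the median ran from -0.14 to 0.04 and was above 0 with median centring. Hspa1a (probe on mm7, chr17:33066911-33066970) had levels of 10.88 and 11.05 in the control and 9.68 and 9.64 in the nucleoprotein pool. Its ratios were -1.20 and -1.40 (mean -1.30 ± 0.14, 2.46-fold). Its 3 other probes lay between -1.26 and -0.14, and its near-identical neighbour gene Hspa1b can share its signal. In spleen Hspa1a was lower as well, at -0.91 and -1.47. Hsph1, a partner of Hspa1a, was at -0.50 and -0.47 and the co-chaperones Dnajb4 at -0.40 and -0.75 and Dnajb1 at -0.75 and -0.05. The constitutive Hspa8 was at -0.09 and 0.03 and Hsp90aa1 at -0.32 and 0.31. Hspb1 was at 0.37 and -0.96.

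The windows of Hspa1a and Hsph1 are shown with the paired units of the heat shock element in capitals, GAANNTTC in the first and TTCNNGAA in the second. Hsph1 was chosen for display after its value was seen, and its window is 1 of 2 of this gene.
Hspa1a (GRCm38.p6, chr17:34972157-34972406, minus strand): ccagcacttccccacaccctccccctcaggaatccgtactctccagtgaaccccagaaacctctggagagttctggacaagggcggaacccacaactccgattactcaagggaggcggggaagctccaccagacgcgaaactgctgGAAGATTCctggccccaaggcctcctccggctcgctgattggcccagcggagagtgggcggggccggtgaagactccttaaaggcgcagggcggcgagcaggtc
Hsph1 (GRCm38.p6, chr5:149636337-149636586, minus strand): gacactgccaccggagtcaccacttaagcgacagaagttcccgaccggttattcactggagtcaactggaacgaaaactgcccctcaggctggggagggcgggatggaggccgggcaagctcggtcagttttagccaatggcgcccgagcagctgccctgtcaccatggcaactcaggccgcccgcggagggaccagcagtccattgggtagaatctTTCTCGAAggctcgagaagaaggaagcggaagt

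GAANNTTC, at -104 to -97 in Hspa1a, was present in 7 of 24 windows of heat shock genes (29.2%) and in 6.69% of all windows. TTCNNGAA, at -33 to -26 in Hsph1, was present in 5 of 24 (20.8%) and in 7.17% of all. Both letter patterns read the same on either strand and can overlap each other. The sterol regulatory element TCACNCCAC was found in 1 of 30 windows of sterol genes, that of Hmgcs1 (3.33%, against 1.05% of all), and the FOXO element GTAAACA in 2 of 32 windows of insulin response genes, those of Akt1 and Txnip (6.25%, against 3.17%).

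The genes that carry the response to lipopolysaccharide itself were not called. Of 19 cytokines and chemokines and 19 acute phase genes 0 passed the bound in either direction, with medians of 0.01 (0.10 and -0.21 on the single arrays) and 0.00 (0.25 and -0.27). Tnf was at 0.21 and -0.22, Il6 at -0.04 and 0.26, the chemokines Ccl2 at 0.12 and -0.34, Cxcl1 at 0.07 and -0.22 and Cxcl10 at 0.48 and -0.20. Il1b was above 0 on both arrays, at 0.20 and 0.33. Saa3 was at 0.15 and 0.07, Hp at 0.35 and -0.36, Lcn2 at 0.79 and -0.91 and the iron hormone gene Hamp at 1.03 and -1.09. The medians of both lists had opposite signs on the 2 arrays.

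Genes of nucleotide synthesis and salvage, the pathways that dietary nucleic acids can spare or feed, were close to 0. None of the 32 was called and the median was -0.03 (0.06 and -0.09). In purine synthesis Ppat, the committed step, was at -0.14 and 0.03, Paics at 0.45 and -0.29 and Impdh2 at 0.06 and 0.07. Hprt, the main salvage enzyme, was at -0.08 and 0.13, Xdh, which forms urate, at 0.11 and -0.31, and Cad, which starts pyrimidine synthesis, at 0.00 and 0.31.

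Markers of other cells of the organ were not called. All 9 measurable neutrophil markers had positive means, 7 of them on both arrays, with a median of 0.22 (0.16 and 0.19), a summed level of 14.43 in the control against 14.65 in the nucleoprotein pool, and 0 called. S100a8 was at 0.36 and 0.18 and S100a9 at -0.09 and 0.53, and Elane was not well above background in either pool. Macrophage markers had positive means in 8 of 8, a median of 0.06, and 7 with opposite signs on the 2 arrays. Medians of the duct, B and plasma cell, T and NK cell, endothelial, stromal, erythroid, adipocyte and intestinal lists lay between -0.05 and 0.05 with 0 called. The defining markers Krt19 (-0.08 and -0.06), Sox9 (0.27 and 0.38), Cd3e (0.05 and 0.13), Pecam1 (-0.03 and -0.11), Stab2 (0.30 and -0.47), Col1a1 (-0.12 and -0.17), Adgre1 (0.03 and 0.22), Clec4f (0.18 and -0.03), Hba-a1 (0.12 and -0.06) and Fabp2 (-0.30 and 0.14) stood at those values. Adipoq and Cdx2 were not measurable. In spleen 8 of 10 measurable neutrophil markers were above 0 on both arrays, with a median of 0.185 (0.15 and 0.14), so this direction was not particular to liver. The part of the neutrophil shift in the other values was not tested.

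The remaining calls fell in none of the metabolic lists. Glandular kallikreins, serine proteases of salivary gland, pancreas and kidney, gave 3 of them: Klk1b5 at -2.17 and -2.14, or 4.45-fold, Klk1b3 at -0.81 and -1.36 and the accession V00829, which the file describes as a kallikrein, at -0.64 and -0.87. V00829 moved from a mean of -0.75 to -1.34 with Feature Extraction's log ratios. These genes are near-identical copies that probes cannot fully tell apart. The accession CF584628 was at -1.90 and -1.71, and lower in spleen too at -0.89 and -0.75. Fam47e was at -1.34 and -0.96, and the adhesion gene Mpzl2 at -0.76 and -0.71 with its other probe at -0.02. The transcript ENSMUST00000003582, which the file describes as an immunoglobulin mu heavy chain constant region, was at -0.64 and -1.25. Beside it, 6 of 6 measurable B and plasma cell markers had means below 0, between -0.06 and -0.02, with a median of -0.03. Of these 3 were below 0 on both arrays and 3 had opposite signs. The part of these markers in the value of the transcript was not tested. The transcript 3930402G23Rik was higher by 0.60 on both arrays.

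The bound divides genes that hardly differ. Nearest to it among the called genes lay 3930402G23Rik, Rgs16 and V00829, with a weaker array of 0.60, -0.63 and -0.64. Nearest to it among those not called lay Ptprz1 (-0.58 and -0.92), Klk1b4 (-0.58 and -1.08), Cavin2 (-0.71 and -0.57), the estrogen sulfotransferase Sult1e1 (-0.63 and -0.56), Upp2, Thrsp, Hes6 (-0.59 and -0.55) and, on the higher side, Lor (0.54 and 0.83). Read on the mean of both arrays instead, an alternative chosen after seeing the data, the bound gave 5 genes higher and 33 lower outside the digestive list, with Acacb, Ciart, Slc37a4, Pklr, Thrsp, Upp2 and Mid1ip1 among the lower ones gained and Acot1 among the higher.

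The same ratios in spleen, measured on other arrays, were set beside those of liver. Of the 17 genes called outside the digestive list 16 were measurable in spleen, and 2 of them, Hspa1a and CF584628, were also called lower there, against 0.231% of all measurable spleen genes. Dbp, Klk1b5, Acss2, G6pdx and M77003 had spleen means of -0.03, -0.02, -0.07, 0.00 and 0.02. The digestive list was lower in spleen as well, with 23 of 41 called and a median of -0.93 against -3.00 in liver. In spleen the sterol list had a median of 0.00, the fatty acid list one of 0.00, the clock list one of 0.01 and the heat shock list one of -0.10, against -0.21, -0.07, -0.12 and -0.10 in liver. Hepatocyte markers had positive means in 14 of 15 measurable in spleen, with 6 called higher and a median of 0.56. Igfbp1, a liver-secreted protein, was at 1.95 and 2.08 there, and the part of liver RNA in the spleen values was not tested. With 1 pool per diet and organ the difference between organs was not tested.

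**Figure D5:**
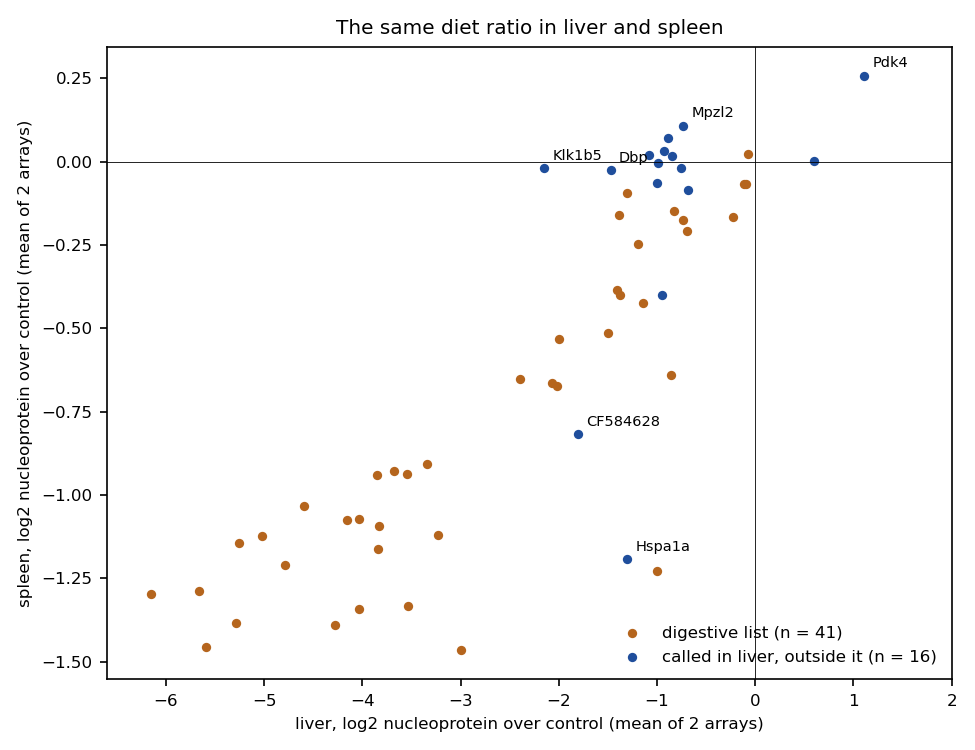
Mean log2 ratio of nucleoprotein over control over 2 arrays in liver (x axis) and spleen (y axis) for the 41 digestive genes and the 16 genes called in liver outside that list and measurable in both organs. The digestive genes lie below 0 in liver, and all but 1 do so in spleen; of the others, Hspa1a and CF584628 lie well below 0 in both organs while Klk1b5 and Dbp are near 0 in spleen.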

How the data were processed

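The 4 arrays, 2 of liver and 2 of spleen on 1 slide, were Agilent mouse whole genome 4 x 44K arrays. Per the file headers, the deposited files of Feature Extraction hold mean and local background intensity for both dyes, flags and the log10 ratio of red over green; version 9.5.3.1 is given in the submitters' processing notes. The deposited series value table, handled as a score, matched the processed red over green ratio in size within 0.02 log2 units for 99.8% to 100.0% of spots; the meaning of its sign was not settled and it was used in size with the direction of the dyes.

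Directions came from the dyes in the labels. Mean and background intensities were corrected with normexp (offset 50) and normalized within each array by loess (span 0.3) in limma 3.58.1 (R 4.3.3); levels were then scaled with Aquantile. Of 45018 spots per array 1639 were controls; these and outlier-flagged spots (189 to 354 gene spots per array) had no weight, and 0 spots were saturated. Spots of a probe were averaged, and the brightest of a gene's probes was used (8914 of 27670 genes had more than 1). Of 41174 probes 22951 were named through RefSeq by accession and 9768 by symbol or synonym, and 8455 kept the file's name. A gene counted as measurable if Feature Extraction marked its spots as well above background for the same pool, of either diet, on each of the 2 arrays. Array number limits the precision.

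Plain subtraction, the more literal use of these signals, was kept as an alternative because it leaves values without a logarithm. Other alternatives were median centring, offset 10, the deposited log ratios, 2 other background filters, the mean over probes, a 2-fold bound and single arrays; a bound on the mean and subtraction of the dye effect seen in spleen were chosen after seeing the data. On simulated data in which 50 probes per size and direction of 41174 were changed, 62.0% of those raised and 70.0% of those lowered 2-fold were called, with median estimates of 0.84 and -0.85, so absence from the calls is weak evidence at that size. All 4-fold changes and 0 of 40974 unchanged probes were called. Both simulated arrays were built from 1 shared signal, with random noise and a dye effect that averages out over the swap. Changed probes came only from those above a set signal, and the background filter was not applied. The 0 calls among unchanged probes therefore give no rate of false calls for the real arrays. With 1 pool per diet, the part of differences between mice in the calls was not tested. What the simulation had to recover was relaxed after its first output was seen; the normalization and the call were not altered.

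The members and gene lists were chosen with earlier results of these data known. Genes are named if called outside the digestive list, as key members of a list, or as the 3 of a metabolic list with the largest mean among those of 1 sign on both arrays; others in the text (Nr1h3, Fads1, Fads2 and the like, and the promoters of Tef and Hsph1) were chosen after their values were seen. Probe positions are on mm7, as in the files, without exon annotation, and promoter windows are RefSeq's for GRCm38.p6. Some genes of these lists are counted in them and not reported here by name.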

Additional observations from a re-analysis of the deposited data

Results flagged for a closer look

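In 3 genes called in liver, both liver arrays and both spleen arrays had opposite signs. Acly was at -0.89 in liver and at 0.07 in spleen (0.03 and 0.12 on the single arrays), Arrdc3 at -0.93 and 0.03 (0.06 and 0.01), and Mpzl2 at -0.73 and 0.11 (0.01 and 0.20). The spleen values are small beside the liver ones. The same held for the medians of 2 lists, pyruvate dehydrogenase control at -0.02 in liver and 0.04 in spleen, and glucose use and output at -0.16 in liver and 0.02 in spleen. The difference between the organs was not tested, as there was 1 pool per diet and organ.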

How the results depend on the processing

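No paired analysis was possible because the results come from no test. Against 2 genes higher and 15 lower outside the digestive list, median centring gave 0 and 2, plain subtraction 7 and 43, Feature Extraction's log ratios 28 and 68, the same as the values of the authors' own table, a 2-fold bound 0 and 4, and the bound on the mean of both arrays 5 and 33. Single arrays gave 30 to 198 higher and 62 to 223 lower. The digestive count stayed between 28 and 38. With median centring the medians of lists relative to all genes came to 0.021 for fatty acid and triglyceride synthesis, -0.025 for NADPH, -0.115 for sterol synthesis, -0.008 for pyruvate dehydrogenase control, 0.188 for fatty acid oxidation, 0.014 for glucose, 0.105 for insulin response and 0.043 for heat shock. Sterol synthesis was at -0.249 with offset 10, -0.272 with plain subtraction and with Feature Extraction's ratios, -0.270 with the value table and -0.203 with the mean over probes. Pyruvate dehydrogenase control was at -0.051, -0.054, -0.072, -0.072 and -0.030 under the same 5 and at -0.031 without the filter on dim probes. NADPH was at -0.179 with plain subtraction. Single arrays gave -0.148 to -0.093 for fatty acid synthesis, -0.189 to -0.126 for NADPH, -0.234 to -0.207 for sterol synthesis, -0.030 to 0.008 for pyruvate dehydrogenase control and -0.138 to -0.124 for heat shock. The cause of these shifts was not tested. Of the 17 called genes, CF584628 and Klk1b5 kept the call under all 10 alternatives that give a gene's value. The other 15 lost it with median centring, and Acss2 and Mpzl2 also with the mean over probes. Single arrays and the dropped filter on dim probes could not remove a call. Nor could the mean over probes for a gene with 1 probe, as CF584628 and Klk1b5 have. For Acly that mean left out its other probe, which did not pass the background filter, so its value was unchanged. Feature Extraction's ratios and the authors' table hold nearly the same values, so these alternatives are not separate checks. Signal close to background limits the dim probes.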

Other observations

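The kallikrein genes are a family picked out after their values were seen. Of 13 measurable members 10 had means below 0 and 4 were called, Klk1b5, Klk1 (-1.06 and -1.56, also in the digestive list), Klk1b3 and V00829. Klk1b4, Klk1b26 (-0.49 and -0.93) and Klk1b8 (-0.42 and -0.88) were below 0 on both arrays. Liver means lay between -2.15 and 0.03, and spleen means between -0.10 and 0.02, and the difference between the organs was not tested. Probes of near-identical copies can share signal, so these are not independent genes.

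Some large values rested on 1 array. Aqp8, a water channel, was at -1.07 and -0.14, and Pom121, a nuclear pore gene, at 1.26 and -0.02, with its other probes between -0.01 and 0.01.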
